A study of Mus musculus with 119 samples.

Results

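The RGS, adenylyl cyclase and phosphodiesterase genes of the mouse were taken from the deposited tables by their symbols: every symbol made of Rgs or Adcy and a number, or of Pde, a number and a letter. This rule used no measured value and found 55 of 55291 symbols, of which 21 were RGS genes, 10 adenylyl cyclases and 24 phosphodiesterases. All 55 were annotated as protein coding in GENCODE vM21 (GRCm38). Of these, 45 reached a mean of 1 CPM (counts scaled by library size) or more in the vehicle libraries of some region. The other 10 (Rgs1, Rgs13, Rgs18, Rgs21, Adcy10, Pde6a, Pde6b, Pde6c, Pde6g and Pde6h) stayed under 1 CPM in each of the 5 regions, with Rgs13 the highest among them at 0.665 CPM.

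Poly(A) RNA was sequenced from brain punches of mice of both sexes. The 5 regions were the ventral tegmental area (VTA), the amygdala (Amy), the prefrontal cortex (PFC) and, in the striatum, the nucleus accumbens (NAc) and the dorsal medial part (DMS). Mice had received vehicle (Veh) or 10 mg/kg of THC, the main psychoactive compound of cannabis, by daily intraperitoneal injection from postnatal day (PND) 28 to 48, followed by behavioural testing from PND 63. Each of the 20 groups held 6 libraries except the male VTA Veh group, which held 5, giving 119 in all. The authors state that they dropped 1 male VTA sample as an outlier after sequencing, without naming it. All 119 libraries were used here. All mice were wild type: the sample labels give C57BL/6J and an age of 11 weeks where the methods of the study give C57BL/6NCrl and brains collected in week 12, and the labels name the dorsolateral striatum as the tissue of the libraries titled DMS. A library is 1 region of 1 mouse, regions were taken from the same mice, and the labels do not tie libraries to mice, so contrasts between regions treat libraries of 1 mouse as independent.

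Adenylyl cyclases make cAMP when a receptor activates them through Gs or Golf and are held back by Gi. Phosphodiesterases (PDEs) break down cAMP, cGMP or both, and RGS proteins shorten the signal upstream by speeding GTP hydrolysis on Gi, Go or Gq. The CB1 receptor, on which THC acts, is coupled to Gi and lowers cAMP in neurons. In striatal medium spiny neurons, the dopamine and adenosine receptors encoded by Drd1 and Adora2a work through Golf, the cyclase Adcy5 and cAMP-dependent protein kinase (PKA).

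Library totals ran from 3091000 to 77042100 expected counts, with a median of 22092600. The lowest was the male VTA Veh library FTL_371. The labelled regions were checked against marker genes: 10 of 12 genes of cortical and basolateral projection neurons were higher in PFC than in every other region, 8 of 12 medium spiny neuron genes were higher in both DMS and NAc than elsewhere, and 10 of 10 midbrain dopaminergic genes were higher in VTA. No list singled out Amy. The hypothalamic and medial amygdala markers had a median sum of 182 CPM in Amy and 250 in VTA. Projection neuron markers had 876 CPM in Amy and 2881 in PFC. Sex-linked transcripts went against the label in 2 of 119 libraries, female Amy THC FTL_344 and male Amy THC FTL_356. The edgeR tests of interaction and sex in Amy were also run without both. The edgeR THC calls of members in Amy were also made without each library in turn. Other Amy results below keep both libraries. Punch content varied within the Amy, where the summed level of 12 medium spiny neuron markers ran from 647 to 3021 CPM and that of 7 choroid plexus markers from 17.6 to 3616 CPM. In VTA the 10 midbrain dopaminergic markers summed to 1201 to 4167 CPM. FTL_371 stood apart there in content as well as depth, with 1502 CPM of these markers against 3221 to 4167 in the other male Veh libraries, and with the lowest oligodendrocyte sum of the VTA libraries, 10801 CPM. In the PFC, the Veh library FTL_264 held the highest medium spiny neuron sum, 719 CPM against a median of 414. PFC and DMS counts came in a table apart from NAc, Amy and VTA counts, and regional differences across the tables cannot be told apart from differences between the tables.

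Promoter sequences are shown for the 5 members that were higher in both striatal regions than elsewhere, Rgs9, Pde10a, Pde1b, Adcy5 and Pde7b. Each is the 250 bases before the first start listed by RefSeq (GRCm38.p6), at chr11:109298182-109298431 (- strand) for Rgs9, chr17:8801495-8801744 (+ strand) for Pde10a, chr15:103502784-103503033 (+ strand) for Pde1b, chr16:35154614-35154863 (+ strand) for Adcy5 and chr10:20548329-20548578 (- strand) for Pde7b. Windows listed numbered 2 for Pde10a, 3 for Pde1b and 1 for each of the others. The windows shown for Pde10a and Pde7b lay inside the GENCODE vM21 gene spans (chr17:8525372-8986648 and chr10:20398004-20725078), not at their outer start. CpG dinucleotides are in capitals.
Rgs9: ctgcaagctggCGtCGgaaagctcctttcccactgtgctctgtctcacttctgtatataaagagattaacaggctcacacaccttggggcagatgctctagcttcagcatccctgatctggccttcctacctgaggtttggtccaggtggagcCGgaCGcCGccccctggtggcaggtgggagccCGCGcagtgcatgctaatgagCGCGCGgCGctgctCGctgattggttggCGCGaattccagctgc
Pde10a: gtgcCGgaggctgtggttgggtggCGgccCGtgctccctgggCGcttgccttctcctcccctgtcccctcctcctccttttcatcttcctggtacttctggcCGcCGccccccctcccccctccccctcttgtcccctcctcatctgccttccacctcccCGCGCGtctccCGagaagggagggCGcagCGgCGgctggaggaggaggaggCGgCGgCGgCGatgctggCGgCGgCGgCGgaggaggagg
Pde1b: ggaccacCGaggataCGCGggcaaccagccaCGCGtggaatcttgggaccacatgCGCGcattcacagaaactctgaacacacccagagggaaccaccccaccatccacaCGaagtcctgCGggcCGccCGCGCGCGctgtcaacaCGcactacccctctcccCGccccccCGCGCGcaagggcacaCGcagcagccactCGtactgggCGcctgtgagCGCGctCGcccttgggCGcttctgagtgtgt
Adcy5: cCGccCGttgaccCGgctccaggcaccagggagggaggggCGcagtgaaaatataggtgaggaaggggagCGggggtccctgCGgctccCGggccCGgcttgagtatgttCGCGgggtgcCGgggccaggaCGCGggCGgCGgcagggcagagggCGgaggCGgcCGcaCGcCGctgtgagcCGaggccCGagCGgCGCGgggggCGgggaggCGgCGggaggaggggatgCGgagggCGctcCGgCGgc
Pde7b: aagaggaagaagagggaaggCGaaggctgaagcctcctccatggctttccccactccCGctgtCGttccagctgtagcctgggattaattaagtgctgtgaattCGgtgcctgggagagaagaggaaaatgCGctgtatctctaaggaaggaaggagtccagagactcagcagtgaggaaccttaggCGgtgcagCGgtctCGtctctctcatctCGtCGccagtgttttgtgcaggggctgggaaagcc
These stretches held 14 (Rgs9), 21 (Pde10a), 26 (Pde1b), 32 (Adcy5) and 10 (Pde7b) CpG dinucleotides, against a median of 6 over 32851 such windows of all genes. Their GC content ran from 55.2% for Pde7b to 78.0% for Adcy5, against a median of 52.4%. The median over the 70 windows of the 40 members listed by RefSeq was 6.5 CpG dinucleotides and 55.8% GC.

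The cAMP response element, through which the factor CREB acts, was searched in the same windows on both strands. Its full form TGACGTCA was present in 0 of 70 member windows, against 1.55% of all windows. The part TGACGT, read on either strand, was present in 4 member windows, against 6.47% of all, and the shorter TGACG, contained in it, in 12, against 17.77% of all. The 4 windows with TGACGT belonged to Rgs2, Pde4b, Pde4a and Adcy9, shown as 30 bases with the match in capitals, at chr1:144004318-144004347 (- strand) for Rgs2, chr4:102421508-102421537 (+ strand) for Pde4b, chr9:21184038-21184067 (+ strand) for Pde4a and chr16:4420505-4420534 (- strand) for Adcy9.
Rgs2: gatgcggcgcctACGTCAacagcgccctcg
Pde4b: tgatttggctgcACGTCAattttctcatct
Pde4a: tggcacagctcgACGTCAggctggggagga
Adcy9: cggacccggcggTGACGTgcgcgggccgcg
The matches lay 186 (Rgs2), 35 (Pde4b), 51 (Pde4a) and 24 (Adcy9) bases before the listed start. Pde4b had 4 listed windows and Pde4a 3, and their matches lay inside the gene spans.

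Regional levels were described in the Veh libraries of both sexes (n = 12 for a region, 11 for VTA), with 47 members among the 17476 genes tested. A gene was called for a region when each pairwise contrast with the other regions had an FDR under 0.05 and a log2 fold change of at least 1. Fewer cells of a type and less RNA per cell cannot be told apart in punches.

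**Figure D1:**
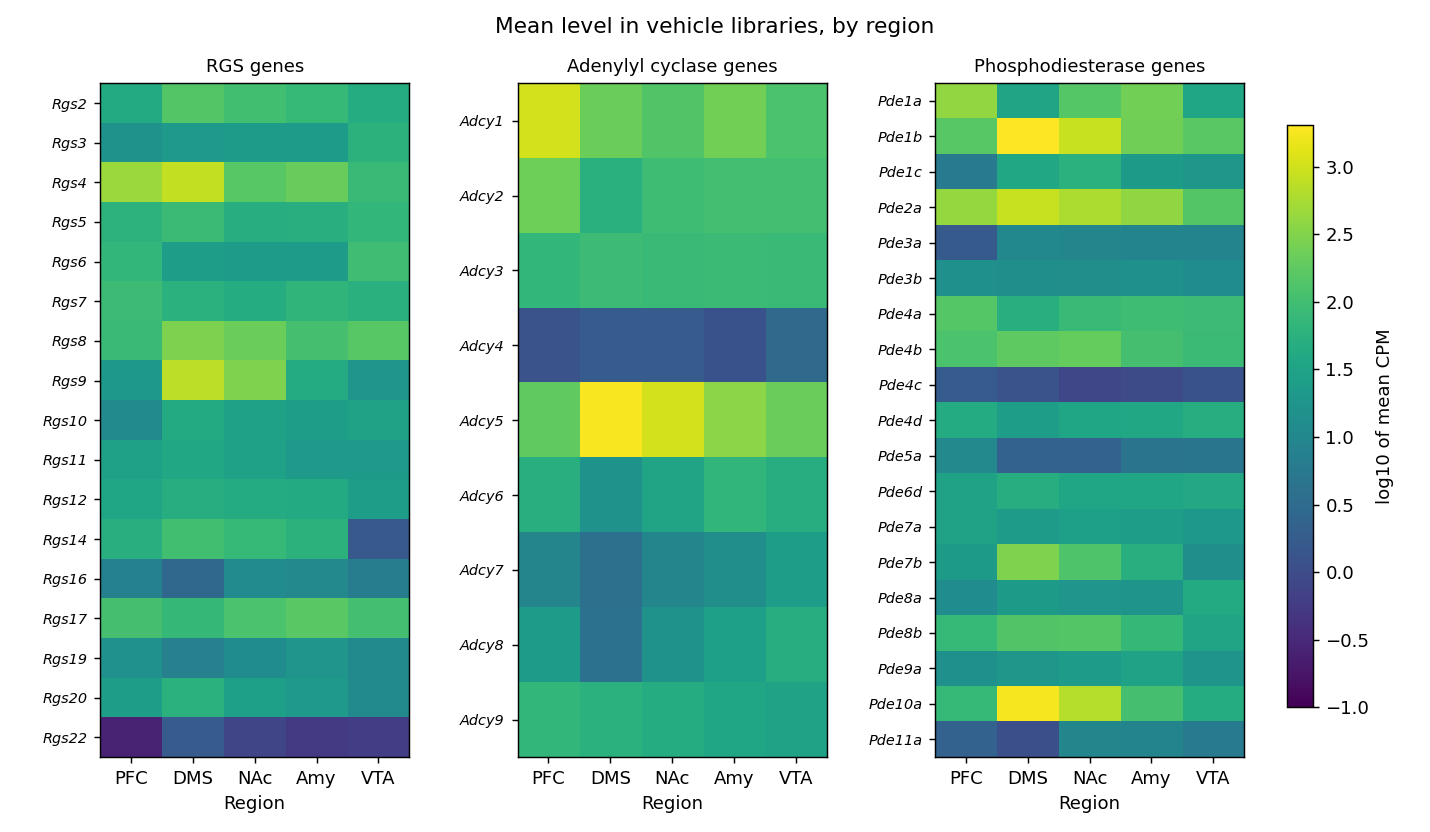
Mean level of the 45 members at 1 CPM or more in some region, as log10 of CPM (colour), in the Veh libraries of each region (columns; n = 12, or 11 for VTA). Pde1b, Adcy5 and Pde10a are brightest in DMS, Adcy1 in PFC, and Rgs14 is dark only in the VTA column.

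The striatum stood out. Rgs9, Pde10a, Pde1b, Adcy5 and Pde7b were higher in both DMS and NAc than in PFC, Amy and VTA, 5 of 47 members (10.6%) against 1.40% of all genes tested, and 0 members were lower in both, against 1.01%. Rgs9 is the R7-family RGS that restrains dopamine D2 and opioid receptor signals in medium spiny neurons. Its lowest, median and highest levels were 523, 822 and 884 CPM in DMS and 235, 308.3 and 365.3 CPM in NAc. They were 31.2, 45.0 and 82.3 CPM in Amy, 12.9, 17.8 and 52.8 in PFC, and 12.7, 16.6 and 27.2 in VTA. No striatal library overlapped a library of another region, and the smallest of the 6 contrasts was a log2 fold change of 2.74 ± 0.15 (SE), NAc over Amy. PFC and VTA did not pass the test against each other for Rgs9 (0.22 ± 0.17, FDR = 0.23).

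Pde10a, which hydrolyses both cAMP and cGMP in medium spiny neurons, averaged 1775 ± 253 CPM (SD) in DMS and 676 ± 124 in NAc, against 111 ± 50.5 in Amy, 75.9 ± 25.1 in PFC and 46.9 ± 6.04 in VTA. Pde1b, a calcium- and calmodulin-activated PDE, averaged 2041 ± 261.7 CPM in DMS and 888 ± 111 in NAc, and 154 to 234 CPM in the other regions. Per kilobase of exon it was the highest member in DMS (549 CPM per kb), NAc (239) and VTA (42.9). Adcy5, the main cyclase of the striatum, had 1866 ± 193 CPM in DMS and 1037 ± 146 in NAc, against 179 to 357.3 CPM elsewhere. Pde7b, a cAMP-specific PDE, had 299.3 ± 29.3 and 135 ± 20.3 CPM, against 13.9 to 51.0 CPM. The weakest of the 6 contrasts was a log2 fold change of 2.64 for Pde10a, 1.95 for Pde1b, 1.57 for Adcy5 and 1.43 for Pde7b. Contrasts within a table gave the same picture: PFC over DMS was -5.28 for Rgs9, -4.57 for Pde10a, -3.76 for both Pde1b and Pde7b, and -3.40 for Adcy5. The 5 genes had their highest PFC Veh level in FTL_264, the library of highest medium spiny neuron sum in PFC. There Rgs9 read 52.8 CPM against 12.9 to 20.4 in the other PFC Veh libraries. The part of the marker level in this was not tested.

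**Figure D2:**
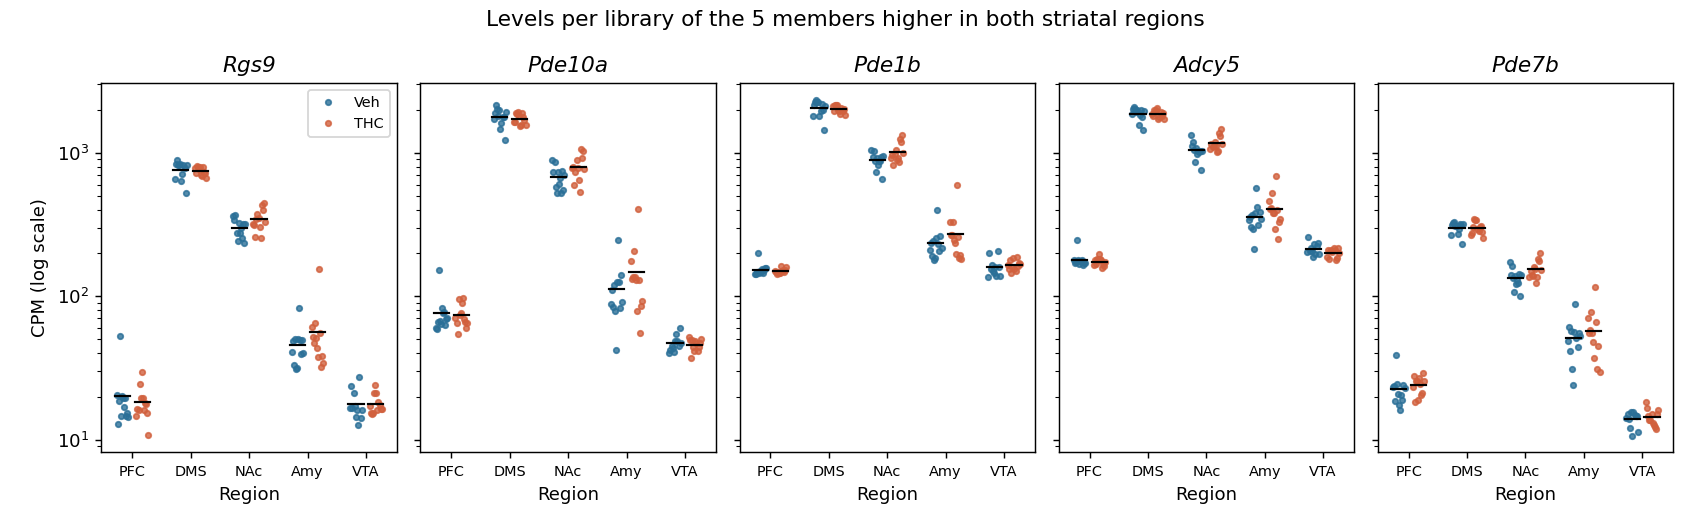
CPM per library (log axis) of Rgs9, Pde10a, Pde1b, Adcy5 and Pde7b in the 5 regions, Veh in blue and THC in orange, with a bar at each mean. The DMS mean lies above the NAc mean, and both above the means of the other regions, while Amy libraries run from 42.0 to 404 CPM for Pde10a.

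DMS and NAc also differed from each other. Members higher in DMS numbered 6 (12.8%, against 3.30% of genes): Rgs4 (log2 fold change 2.43 ± 0.12), Pde10a (1.40), Rgs9 (1.35), Pde1b (1.21), Pde7b (1.16) and Rgs20 (1.05). Members lower in DMS also numbered 6, against 6.47% of genes: Pde11a (-3.00 ± 0.19), Pde1a (-2.15), Rgs16 (-2.01), Adcy8 (-1.90), Adcy7 (-1.25) and Adcy6 (-1.02). Rgs4, an R4-family protein acting on Gi and Gq, had 461, 827 and 1071 CPM in DMS and 122, 150 and 175 CPM in NAc. Pde11a, a dual cAMP and cGMP PDE, showed the opposite order, with 0.494, 1.02 and 2.17 CPM in DMS and 2.89, 10.4 and 14.8 CPM in NAc. Neither gene had overlapping ranges. The regions lie in different tables. In THC libraries 2 of the 12, Pde7b (0.97) and Rgs20 (0.88), fell under 1.

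For DMS against each of the other regions, Pde10a, Rgs9, Pde1b, Pde7b and Rgs20 were higher, 5 of 47 against 1.46% of genes. Rgs20, of the RZ family that acts on Gz, had 56.8 ± 9.84 CPM in DMS and 11.7 to 27.6 CPM elsewhere. Adcy8 (weakest log2 fold change -1.90), Adcy7 (-1.20), Rgs16 (-1.02) and Adcy6 (-1.02) were lower, 4 of 47 against 2.76%. The calcium-stimulated cyclase Adcy8 had 4.24 ± 1.06 CPM in DMS, against 16.2 in NAc, 22.9 in PFC, 27.4 in Amy and 48.7 in VTA. Adcy5 was at 1866 CPM in DMS and its near relative Adcy6, also inhibited by calcium, at 16.4 ± 4.81 CPM. In THC libraries the weakest contrast was 0.97 for Pde7b, 0.88 for Rgs20 and -0.86 for Rgs16. For Rgs16 it was -0.94 without the VTA library FTL_371.

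PFC had the highest level of Adcy1, Pde5a and Adcy2, 3 of 47 members against 2.35% of genes. Adcy1, a calcium- and calmodulin-stimulated cyclase known for its part in cortical plasticity, had 919, 1023 and 1208 CPM in PFC, and 101 to 367.8 CPM over all Veh libraries of the other regions. The smallest contrast was a log2 fold change of 2.08 ± 0.11 over Amy. Adcy2, a cyclase stimulated by G protein beta and gamma subunits, had 229 ± 8.14 CPM in PFC and 55.3 to 107 CPM elsewhere (weakest 1.09). The cGMP-specific Pde5a had 10.5 ± 0.865 CPM against 2.27 to 4.80 (weakest 1.19). Pde3a (-2.37), Pde1c (-1.62) and Rgs10 (-1.15) were lowest in PFC, 3 of 47 against 2.15%. Pde3a, a cAMP PDE inhibited by cGMP, had 1.66 ± 0.248 CPM in PFC and 8.69 to 10.2 CPM in the other regions, whose levels lay close together. Rgs10, the small RGS of the R12 family, did not hold in THC libraries, where its weakest contrast was -0.90.

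In VTA, Rgs14 was far below its level elsewhere. It had 0.576, 1.33 and 4.12 CPM there, and 50.4 ± 3.19 CPM in PFC, 99.8 ± 8.73 in DMS, 76.1 ± 13.1 in NAc and 58.7 ± 7.84 in Amy. Rgs14 binds Gi as well as Ras and Rap proteins and limits plasticity in hippocampal area CA2. Its weakest contrast, against PFC, was a log2 fold change of -5.24 ± 0.16, the largest of any called member. Pde2a, a dual PDE stimulated by cGMP, had 144 ± 13.9 CPM in VTA and 392 to 881 CPM elsewhere (weakest -1.41), and the high-affinity cAMP PDE Pde8b had 32.7 ± 3.40 against 73.1 to 145 (-1.14). These 3 of 47 members lower in VTA stood against 3.70% of genes. Only Rgs3, of the R4 family, was higher in VTA, 1 of 47 against 4.45%, with 59.6 ± 9.57 CPM against 15.7 to 24.5 CPM (weakest 1.302). Without FTL_371, Rgs4 joined the lower members. Rgs4 had 149.8 CPM in that library and 53.3 to 65.9 in the other 4 male VTA Veh libraries.

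NAc and Amy had 0 members that were higher (0.280% and 0.549% of genes) or lower (0.0973% and 0.0744%) than in every other region. With the fold threshold at 0.5 on the log2 scale, Pde1c was higher in NAc (1.11% of genes), with 57.2 ± 8.68 CPM there and 37.1 ± 5.50 in DMS. DESeq2 also called 0 members in these 4 rules. It called 0.285% of genes higher and 0.0627% lower in NAc, and 0.439% higher and 0.0513% lower in Amy.

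The next members met none of these rules at the fold threshold of 1. In the R4 family, Rgs8 had 283.6 ± 40.5 CPM in DMS and 217 ± 14.7 in NAc, against 81.1 ± 5.68 in PFC. Rgs2 ran from 43.3 (PFC) to 143 CPM (DMS), and Rgs5, a marker of pericytes, from 48.0 (NAc) to 85.6 (DMS). Among the relatives of Rgs9 in the R7 family, Rgs6 was highest in VTA (98.3 ± 10.7 CPM) and PFC (70.7 ± 4.23), and 23.1 to 24.8 CPM in the other regions. Rgs7 ran from 46.5 (NAc) to 91.2 CPM (PFC) and Rgs11 from 20.3 (Amy) to 36.2 (DMS). The RZ genes Rgs17 and Rgs19 were highest in Amy, at 160 ± 12.1 and 17.5 ± 1.66 CPM. Adcy3 and Adcy9, expressed in many tissues, ran from 72.3 (PFC) to 88.5 CPM (DMS) and from 30.6 (VTA) to 70.2 CPM (PFC).

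Among the cAMP-specific PDE4 genes, Pde4b was highest in NAc (192 ± 19.8 CPM) and DMS (172 ± 11.1), Pde4a in PFC (146 ± 8.92), and Pde4d in VTA (48.6 ± 6.35) and PFC (45.1 ± 2.78). Pde4c averaged at most 1.82 CPM in a region. Pde3b stood between 12.5 and 14.7 CPM on average in the 5 regions. Of the PDE6 genes, which serve light detection in the retina, only Pde6d, a carrier of prenylated proteins, passed 1 CPM, with 30.2 to 47.8 CPM. Pde8a was highest in VTA at 42.7 ± 6.08 CPM, the cGMP-specific Pde9a in Amy at 30.5 ± 2.98 CPM, and Pde7a ran from 20.0 (VTA) to 30.5 CPM (PFC). Rgs22 was unevenly spread: in the DMS Veh libraries it ran from 0.192 to 5.81 CPM around a median of 0.606. Per kilobase, Rgs4 led in PFC (155 CPM per kb) and Pde2a in Amy (88.5).

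Genes of the same pathway gave a background for these patterns. In the list of striatal G protein signalling genes, Gnal, Gng7, Ppp1r1b, Drd1, Adora2a, Gpr6 and Gpr52 were among those higher in both striatal regions. Gnal, which encodes the alpha subunit of Golf, had 973 ± 98.1 CPM in DMS and 191 ± 22.1 in VTA, while Gnas, encoding Gs alpha, was lowest in DMS, with 372.03 ± 72.9 CPM against 1264 ± 41.3 in PFC. Of 9 PKA subunits and inhibitors, Prkar2b was higher in both striatal regions (197 ± 17.1 CPM in DMS, 192 ± 19.4 in NAc, 53.3 to 86.0 elsewhere), and Prkar2a and Pkib were lower in DMS than elsewhere. Of 13 cAMP effectors and CREB factors, the anchoring protein gene Akap5 was higher in the striatal regions (392 ± 29.7 and 333.1 ± 58.9 CPM) and lowest in VTA (14.4 ± 1.97). The channel gene Hcn3 was higher and Crtc1 lower in VTA. Of the 4 tested partners of R7 RGS proteins, the orphan receptor gene Gpr179 was higher in VTA (7.69 ± 1.95 CPM), and of 9 guanylyl cyclases and cGMP kinases 0 were called for a region or for both striatal regions. Gnb5, whose product pairs with Rgs9, had 348.5 ± 45.7 CPM in DMS and 201 ± 13.1 in NAc, against 104 to 156 CPM elsewhere.

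THC was compared with vehicle within each region and sex, and a gene was called when its FDR was under 0.05 and its log2 fold change reached 0.4 in either direction. Members were called in female Amy only, 4 in all. In the other 9 comparisons 0 members were called, where edgeR called 0.0127% of genes in female DMS and 0% in the other 8. DESeq2 also called 0 members in these 9, but its shares of all genes there are not given here.

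**Figure D3:**
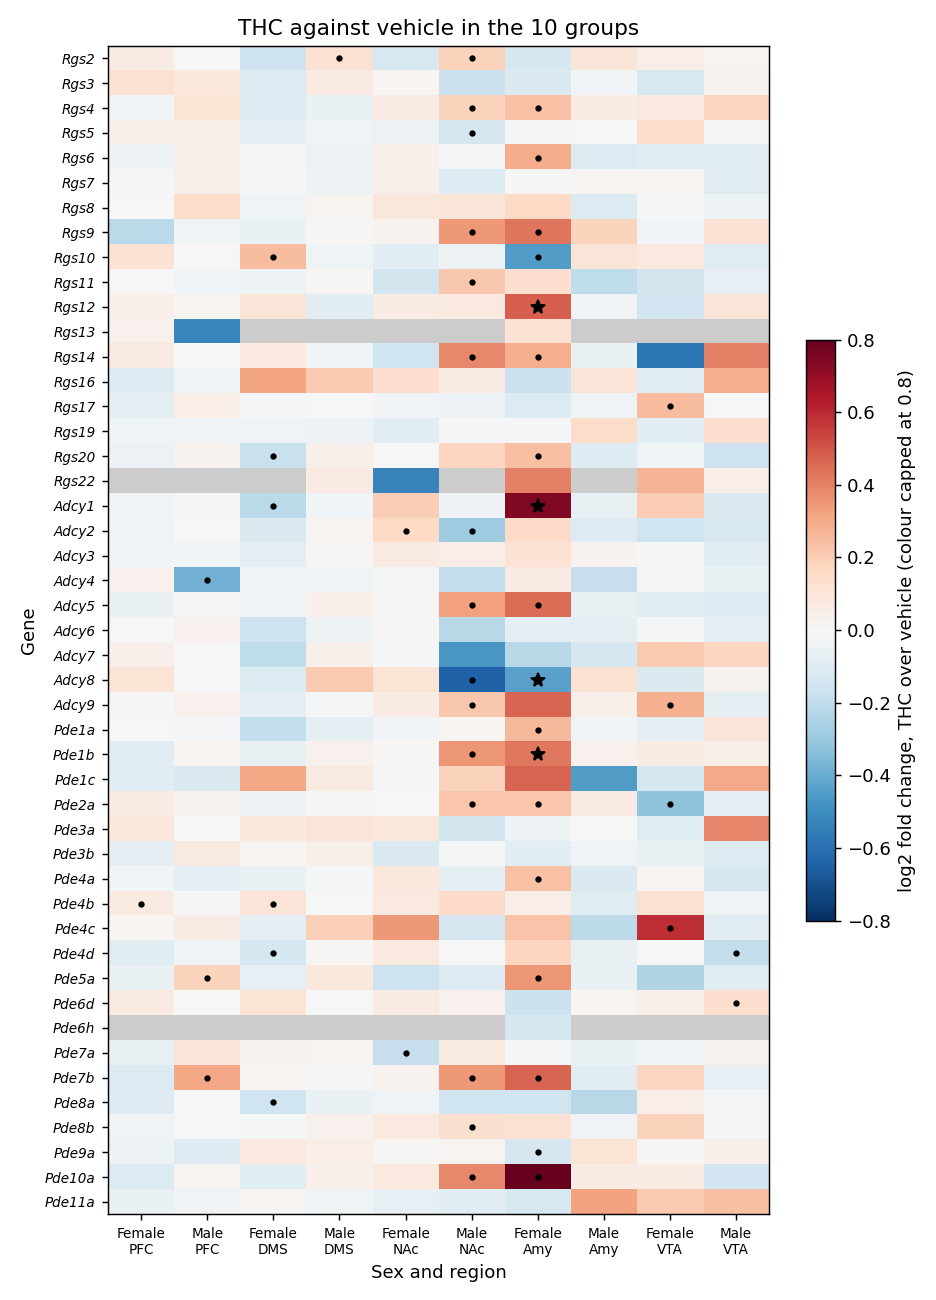
log2 fold change of THC over Veh (colour) for each member tested (down) in the 10 comparisons (across); grey marks genes under the count filter, dots an unadjusted p under 0.05 and stars a call. The marks are most frequent in female Amy (18 of 47 members, 4 of them called, against 21.9% of all genes under that p) and male NAc (15 of 44, against 16.7%).

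In female Amy, Rgs12, Adcy1 and Pde1b were higher after THC and Adcy8 was lower. The 3 higher calls, of 47 members, stood against 1.09% of genes, and the lower call against 0.476%. Rgs12, an R12-family protein that acts on Gi and also binds Ras and Raf, had 38.8, 40.6 and 48.6 CPM (lowest, median, highest) in Veh and 53.0, 58.7 and 63.5 CPM in THC. The groups did not overlap, and the log2 fold change was 0.48 ± 0.06 (FDR = 0.00648). Adcy1 had 112, 238 and 260.7 CPM in Veh and 315.4, 382 and 417 CPM in THC, again without overlap (0.74 ± 0.16, FDR = 0.0319). The Veh library FTL_338 was far below the other 5, which read 219 to 260.7 CPM, and without it the log2 fold change of Adcy1 was 0.60. Pde1b had 180, 200 and 244 CPM in Veh and 235, 266.999 and 330.6 in THC, with 5 of 6 THC libraries above all Veh libraries (0.42 ± 0.10, FDR = 0.0462). Adcy8 had 23.2, 28.3 and 33.7 CPM in Veh and 17.9, 21.7 and 23.2 in THC (-0.44 ± 0.10, FDR = 0.0373), and the highest THC library lay just below the lowest Veh library. Adcy3, the other cyclase of the calcium-stimulated list, read 0.12 ± 0.07 (FDR = 0.307).

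**Figure D4:**
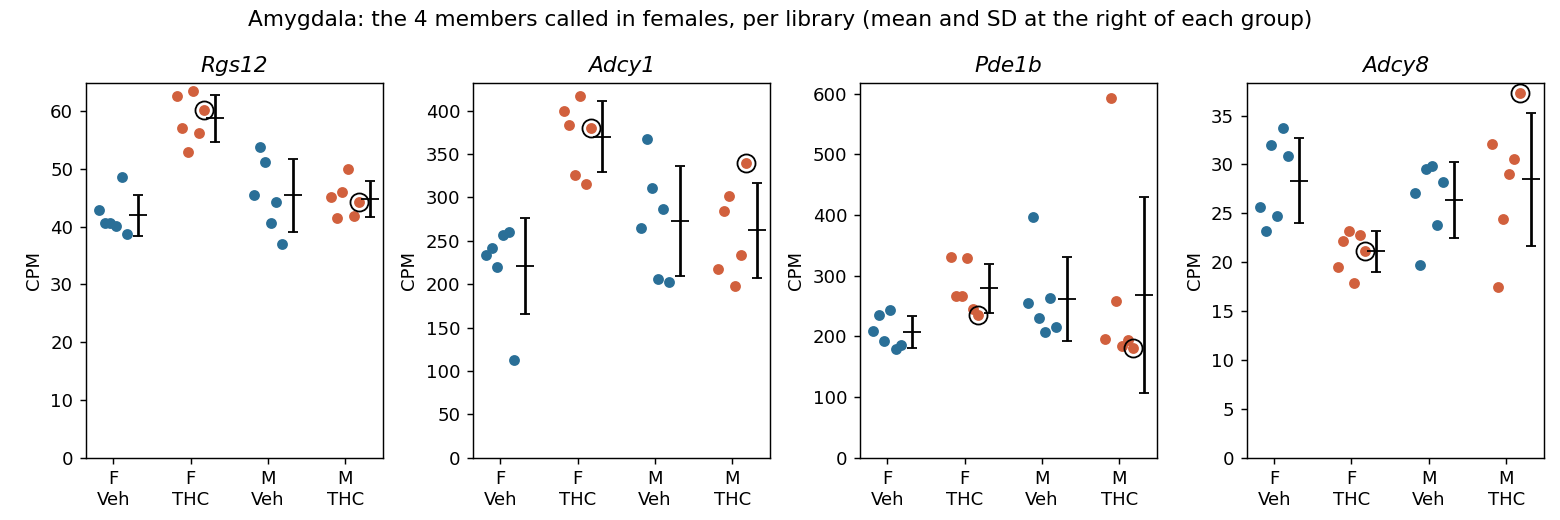
CPM in each Amy library of the 4 members called in females, by sex (F, M) and treatment, with the mean and SD at the right; circles mark FTL_344 and FTL_356, whose sex-linked transcripts went against the label. In females THC and Veh separate for Rgs12 (53.0 to 63.5 against 38.8 to 48.6 CPM), and in males the groups overlap.

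Members with an unadjusted p under 0.05 numbered 18 of 47 (38.3%) in female Amy, 15 higher and 3 lower, against 21.9% of genes. Pde10a (0.80 ± 0.21, FDR = 0.0567), Rgs10 (-0.45 ± 0.12, FDR = 0.0617) and Adcy5 (0.44 ± 0.12, FDR = 0.0674) came next and were not called by edgeR. Pde10a had 42.0, 86.5 and 120 CPM in Veh and 129, 136 and 207 in THC. DESeq2 called 8 members, the same 4 and Adcy5, Pde10a, Rgs9 and Rgs10, against 3.27% of the genes it tested. The median log2 fold change was 0.12 over the members and -0.01 over all genes tested. By family, the R7 and PDE4 genes were each 4 of 4 above 0 (medians 0.22 and 0.20), the PDE1 genes 3 of 3 (0.42), the R4 genes 3 of 7 (-0.01), the RZ genes 1 of 3 (-0.01), and the PDE3 and PDE6 genes 0 of 2 each (-0.07 and -0.15). Pde9a and Pde11a lay below 0. Among PDE4 genes, the Veh and THC medians were close for Pde4b (108 and 109 CPM) and Pde4d (39.3 and 40.8). The lowest Veh library of Pde4d read 15.2 CPM. The medians were 92.0 and 105.7 CPM for Pde4a, and 0.756 and 0.888 for Pde4c. PDE4 genes were 4 of 4 above 0 in female NAc (0.08) and female VTA (0.07) too, and 3 of 4 in male DMS (0.01). They were 2 of 4 in female PFC, and 1 of 4 in female DMS (-0.06), male PFC (-0.03) and male NAc (-0.04). In male Amy (-0.10) and male VTA (-0.11) they were 0 of 4.

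Rgs12 was called in each of the 12 fits with 1 library left out, Adcy1 in 6, Adcy8 in 5 and Pde1b in 3. The count of 4 fell to 1, Rgs12, without Veh library FTL_333 or FTL_335 or THC library FTL_339, FTL_340 or FTL_342, and to 2 without Veh library FTL_337 (Rgs12 and Adcy1) or THC library FTL_344 (Rgs12 and Pde1b). Markers of other cell types moved in the same comparison. The summed level of 12 cortical and basolateral projection neuron markers was 647 to 984 CPM in Veh and 1001 to 1337 CPM in THC, and 4 of the 12 (Slc17a7, Tbr1, Neurod6 and Rspo2) were called higher. The 14 hypothalamic and medial amygdala markers summed to 140 to 253 CPM in Veh and 108 to 161 in THC, with Lhx6 called lower among 11 tested. The 12 medium spiny and central amygdala markers summed to 647 to 1320 and 1052 to 1648 CPM, with Foxp1 and Bcl11b called higher. The 10 midbrain dopaminergic markers summed to 47.0 to 56.8 and 45.3 to 56.8 CPM, with Nr4a2 called higher and Th lower among 5 tested, and the 9 interneuron markers to 1605 to 1805 and 1554 to 1710 CPM, with Lhx6 lower. The 10 oligodendrocyte markers summed to 2483 to 7993 CPM and 2702 to 4718 CPM with 0 called, and 0 of the astrocyte, microglia, endothelium, pericyte and choroid plexus markers were called. The choroid plexus markers summed to 17.6 to 1159 CPM in Veh and 18.05 to 3616 CPM in THC, and FTL_338 held the highest Veh sum and the lowest astrocyte sum, 1892 CPM. No marker gene was at 0 in all female Amy libraries. A score of the cortical and basolateral minus the hypothalamic markers was also used as a covariate. With it 0 members were called, and Rgs12 read 0.23 (FDR = 0.998), Adcy1 0.38, Adcy8 -0.27 and Pde1b 0.04. The score correlated with treatment (r = 0.898), so this fit could hardly keep a call and cannot separate the score from THC. The projection neuron sums did not overlap between Veh and THC, so in these libraries that composition and THC cannot be told apart.

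Male Amy gave 0 of 44 members with an unadjusted p under 0.05, against 1.84% of genes. Rgs12 had 37.0, 44.9 and 53.8 CPM in Veh and 41.6, 44.8 and 49.9 in THC (-0.02 ± 0.08, FDR = 1.00), and Adcy1 read -0.06 ± 0.16. The THC library FTL_352 held 593 CPM of Pde1b and 404 CPM of Pde10a, with 3021 CPM of medium spiny neuron markers, while the other 5 male THC libraries held 181 to 259 and 55.1 to 130 CPM. The sex x treatment interaction called 0 of 47 members in Amy, against 0.00590% of genes, and 10 (21.3%) had an unadjusted p under 0.05, against 15.8%. Its estimate, male minus female, was -0.50 ± 0.11 for Rgs12 (FDR = 0.185), -0.79 ± 0.24 for Adcy1 (FDR = 0.235) and 0.55 ± 0.19 for Adcy8 (FDR = 0.256). DESeq2 called 1 member, Rgs12, against 0.155% of the genes it tested. Without FTL_344 and FTL_356 edgeR also called 0 in this interaction and 0 by sex.

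Of the pathway lists in female Amy, Rgs7bp, which anchors R7 RGS proteins at the membrane, was called higher (0.43 ± 0.08, FDR = 0.0201) among 4 R7 partners, and Gucy1a1, a subunit of the nitric oxide receptor that makes cGMP, was called higher (0.40 ± 0.09, FDR = 0.0386) among 9 genes of the cGMP list. In the lists of 9 PKA genes, 13 cAMP effectors and 11 striatal G protein signalling genes, 0 were called, with median log2 fold changes of -0.02, 0.02 and 0.53. In the other 9 comparisons 0 genes of any pathway or marker list were called.

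Male NAc had 15 of 44 members (34.1%) with an unadjusted p under 0.05, 12 higher and 3 lower after THC, against 16.7% of genes, and 0 called. Rgs11 had 23.9, 27.1 and 28.5 CPM in Veh and 28.1, 31.2 and 34.97 in THC, with 5 of 6 THC libraries above all Veh libraries (0.22 ± 0.06, FDR = 0.21). Adcy5 had 753, 1015 and 1030 CPM in Veh and 1018, 1235 and 1457 in THC (0.33 ± 0.10, FDR = 0.21), and Pde1b 658, 875 and 952 against 868, 1095 and 1336 (0.35 ± 0.11, FDR = 0.21). In Veh, FTL_325 was the lowest for both, and without it they read 0.27 and 0.29. The members that were high in both striatal regions lay above 0 together: Pde10a 0.38, Pde1b 0.35, Pde7b 0.35, Rgs9 0.34 and Adcy5 0.33. The cyclases Adcy8 (-0.65 ± 0.26) and Adcy2 (-0.29 ± 0.10) and the pericyte gene Rgs5 (-0.14 ± 0.06) lay below 0. Of the medium spiny neuron markers 12 of 12 were above 0 and 0 were called, and they summed to 2864 to 4357 CPM in Veh and 3967 to 5830 CPM in THC. The 14 hypothalamic markers summed to 62.6 to 138 and 45.5 to 82.5 CPM, the 12 projection neuron markers to 32.5 to 158 and 33.9 to 49.6 CPM, and the midbrain genes Foxa1 and Foxa2 were at 0. The part of these in the values of the members was not tested. The median log2 fold change was 0.02 over the members and 0.00 over all genes.

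**Figure D5:**
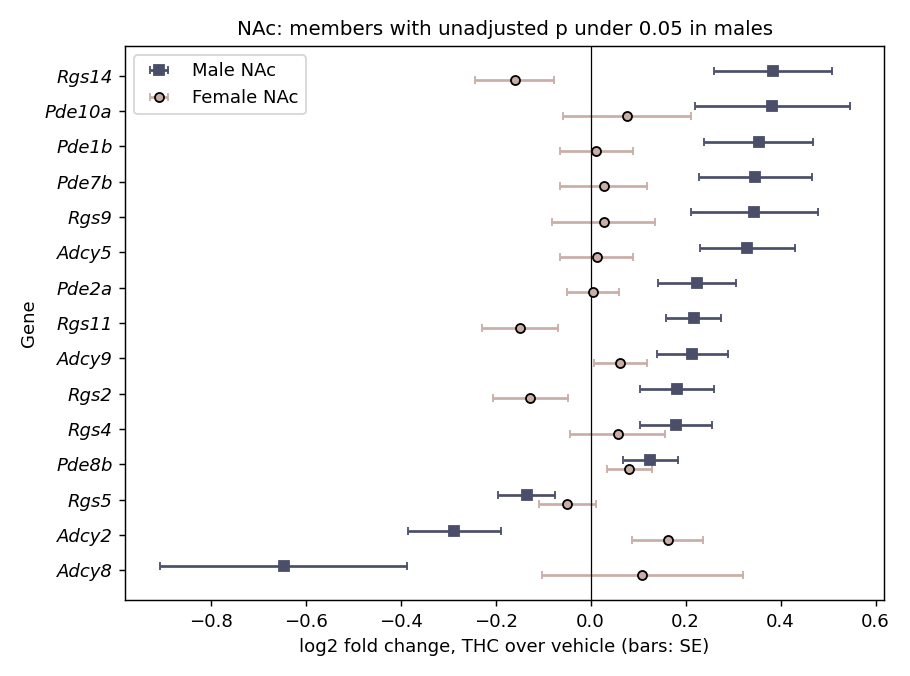
log2 fold change of THC over Veh, with its SE, in male (squares) and female (circles) NAc for the 15 members with an unadjusted p under 0.05 in males. Males run from -0.65 (Adcy8) to 0.38 (Rgs14), and females from -0.16 (Rgs14) to 0.16 (Adcy2).

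Female NAc gave 2 of 45 such members, against 4.61% of genes: Pde7a (-0.18 ± 0.06) and Adcy2 (0.16 ± 0.07). There Rgs9, Pde1b and Adcy5 read 0.03 ± 0.11, 0.01 ± 0.08 and 0.01 ± 0.08. The NAc interaction called 0 of 46 members (0% of genes) and put 9 (19.6%) under an unadjusted p of 0.05, against 11.0%. The first of these were Rgs11 (0.37 ± 0.10, FDR = 0.383), Rgs14 (0.55 ± 0.16, FDR = 0.384) and Adcy2 (-0.45 ± 0.13, FDR = 0.384).

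In the remaining comparisons 0 members were called. Female DMS had 6 of 44 members (13.6%) with an unadjusted p under 0.05, against 8.90% of genes, led by Pde8a (-0.16 ± 0.06, FDR = 0.392), Pde4b (0.10 ± 0.04) and Rgs10 (0.25 ± 0.10). Male DMS had 1 (Rgs2, 0.12 ± 0.06), against 1.93%. In PFC, females had 1 (Pde4b, 0.07 ± 0.03), against 5.84%, and males 3 (Pde7b 0.31 ± 0.11, Pde5a 0.18 ± 0.07 and Adcy4 -0.38 ± 0.18), against 4.07%. Female VTA had 4, against 9.02%, led by Adcy9 (0.28 ± 0.09), Pde2a (-0.32 ± 0.11) and Rgs17 (0.25 ± 0.10), all at an FDR of 0.512. Pde2a had 78.975 CPM in THC library FTL_363 and 107 to 140 in the other 5, against 137 to 158 in Veh. Of the marker lists in female VTA 0 genes were called. The 10 midbrain dopaminergic markers summed to 2782 to 3873 CPM in Veh and 1201 to 3893 in THC, where FTL_363 (1201) and FTL_368 (1667) were lowest. The hypothalamic markers summed to 165 to 289.1 and 242 to 417 CPM, and the 10 microglia markers to 388 to 498 and 309.4 to 448 CPM. Their part in the values of the members was not tested. Male VTA had 2, Pde4d (-0.19 ± 0.08) and Pde6d (0.14 ± 0.06), against 5.92%. The male VTA Veh levels of Pde4d in the 5 libraries ran from 45 to 59.4 CPM. The interaction called 0 members in PFC, DMS and VTA, against 0% of genes in each, and put 3, 1 and 1 of 45 under an unadjusted p of 0.05, against 5.87%, 5.90% and 6.16% of genes.

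Sex itself, with treatment as a covariate, called Pde11a in DMS, 1 of 45 members against 2.64% of genes. Females had 0.494, 0.875 and 1.36 CPM and males 0.728, 1.33 and 2.41 CPM, with overlapping ranges (male over female 0.72 ± 0.20, FDR = 0.024), at a level near 1 CPM. In DMS 11.1% of genes were under an FDR of 0.05 for sex at any fold, and 6.05% were also lower in males. Another 7 of 45 DMS members passed the FDR but not the fold threshold, all lower in males: Rgs4 (-0.35), Rgs20 (-0.24), Rgs8 (-0.23), Adcy3 (-0.18), Pde2a (-0.16), Rgs6 (-0.16) and Pde8b (-0.09). Over the 24 DMS libraries of both sexes the 12 medium spiny neuron markers summed to 5860 to 9611 CPM. The part of this spread in the sex values was not tested. In DMS 22 of 45 members (48.9%) had an unadjusted p under 0.05, against 27.8% of genes. Sex called 0 members in PFC (0.240% of genes), NAc (0.243%), Amy (0.0120%) and VTA (0.109%), although Rgs17 in PFC (-0.12 ± 0.03, FDR = 0.0301) and Rgs6 in NAc (-0.22 ± 0.05, FDR = 0.0338) passed the FDR. At any fold 1.86% of genes in PFC, 2.27% in NAc, 0.0180% in Amy and 0.163% in VTA did so, and 0.974%, 0.861%, 0.0180% and 0.0967% were also lower in males. With DESeq2, sex called 2 members in DMS, Pde11a and Rgs22, against 3.26% of the genes it tested.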

How the data were processed

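RNA from 119 punches of 5 regions was trimmed with cutadapt 2.9, aligned to mm10 with STAR 2.7.3a and counted with RSEM 1.3.1, as the submitters' processing notes name them. The authors deposited RSEM's expected counts without normalization, as 2 tables of the same 55291 symbols. RSEM divides reads shared by similar genes, and 4.75% and 5.00% of the values were not whole. Libraries were stranded. Groups came from the sample titles. All library columns were used.

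Expected counts were rounded. Tests used edgeR 4.0.16 in R 4.3.3 (filterByExpr, TMM, robust quasi-likelihood F test), with FDR by Benjamini-Hochberg over all genes tested. THC was tested within the libraries of a region and sex, the interaction and sex within a region, and regions in the Veh libraries with sex as a covariate. Within a region each library is a separate mouse, so p-values of the THC, interaction and sex tests measure the spread between mice. The regional tests treat libraries of 1 mouse as independent, so their p-values do not measure that spread alone. Levels are TMM-normalized CPM over all libraries, and CPM per kb divides by the union of GENCODE vM21 exons. Totals of 3091000 to 77042100 set the counting precision, and low genes in FTL_371 are the least certain. Scripts were checked on simulated counts.

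The alternatives were DESeq2 1.42.0, its size factors in edgeR, no count filter, a joint fit of the 4 groups within a region, a marker score as a covariate, a fold threshold of 0.5 between regions, THC libraries for the regions and libraries left out. Text names the members called, up to 3 members of smallest unadjusted p for each THC comparison, members described by family, and pathway genes called or of large regional difference. The members and lists were chosen with earlier results of these data known. Marker and pathway lists rest on general knowledge. Some genes of the pathway lists are not reported here.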

Additional observations from a re-analysis of the deposited data

Results flagged for a closer look

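Dixon's ratio was applied to the groups of the members named for THC, 44 groups of 5 or 6 libraries in all, and marked 3 values. Chance alone marks about 1 in 20 groups. Adcy1 in the female Amy Veh library FTL_338 read 112 CPM, against 219 to 260.7 CPM in the other 5 libraries. Adcy5 in the male NAc Veh library FTL_325 read 753 CPM, against 984 to 1030 CPM in the others. Pde7a in the female NAc THC library FTL_317 read 28.2 CPM, against 24.2 to 25.6 CPM in the others.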

How the results depend on the processing

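Depth limits members near 1 CPM, such as Pde11a in DMS, and the male VTA Veh library of 3091000 counts. No paired analysis was possible because the library numbers are not shared between groups. No value changed sign with an alternative. In female Amy the count of 4 members called for THC was 8 with DESeq2 (3.27% of genes), 2 with all 4 groups in 1 fit (0.743%), 0 with the marker score, and 1 to 5 with each library left out. The marker score correlated with treatment there (r = 0.898), so its count cannot tell composition from THC. DESeq2 called 2 members by sex in DMS (Pde11a and Rgs22; 3.26% of genes) in place of 1, and 1 in the Amy interaction (0.155%) in place of 0. For members higher in PFC the 3 became 5 with DESeq2 (1.73% of genes) and 5 with no filter (2.04%), which add Adcy10 and Pde6c at under 1 CPM. For VTA, 1 higher became 3 in THC libraries (4.41%), 2 with DESeq2 (3.08%) and 2 with no filter (3.77%), and 3 lower became 5 in THC libraries (3.92%). With the fold threshold at 0.5, the counts were 7 higher in PFC (5.83% of genes), 9 higher (4.27%) and 8 lower (6.27%) in DMS, 1 higher in NAc (1.11%), 5 higher (11.2%) and 8 lower (8.23%) in VTA, 8 higher (3.43%) and 3 lower (2.91%) in both striatal regions, and 12 higher (10.7%) and 12 lower (14.2%) in DMS than in NAc. This setting admits smaller differences by construction, and for the other changes the cause was not tested. Of the remaining recomputed values, 189 counts stayed within 1.5 times, and 36 single values kept their sign but lost the call.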
